A study of Mus musculus with 4 samples.

Results

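Genes for interleukin receptors were followed in mouse LSK cells, a marrow fraction sorted for c-Kit and Sca-1 and for the absence of lineage markers, which is enriched for blood stem cells and early progenitors. The genes were chosen by name: every mouse symbol that begins with Il, a number and r, apart from Il7r, Il5ra and Il2rb. The rule finds 38 symbols, of which 37 had a probe on the array, read by 51 of its 55681 probes, among 20886 genes with a symbol in all. Il11ra2 was the symbol with no probe.

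Each of 4 groups was measured on 1 single-colour array. The groups were transplanted Sf3b1+/- cells, transplanted wild-type (WT) cells, native Sf3b1+/- cells and native WT cells, all of strain C57BL/6. Native cells came from mice aged 20 weeks. Transplanted cells were CD45.2-positive donor LSK cells sorted 9 months after whole marrow of either genotype was given to lethally irradiated CD45.1-positive hosts. Sf3b1+/- cells are heterozygous for a null allele of Sf3b1, which encodes a subunit of the U2 particle of the spliceosome. The design names 4 mice for the native and 5 recipients for the transplanted collection. How many of them were pooled for an array is not stated. With 1 array per group, a difference between 2 arrays has no replicate check. The time between transplantation and sorting belongs to the transplanted groups alone, so time and transplantation cannot be told apart.

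Interleukins are secreted messengers of blood cells, and each is read by a receptor made of several chains. In most cytokine receptors a private chain binds the ligand while a shared chain, such as the common gamma chain, the common beta chain or gp130, carries the signal to Janus kinases and STAT transcription factors. Receptors of the interleukin-1 family signal through Myd88 and Irak proteins instead, and those of the interleukin-17 family through Traf3ip2. In marrow, interleukin-3 and interleukin-6 act on early progenitors, and the interleukin-1 receptor is known for driving stem cells towards myeloid output.

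All levels below are log2 of the scanner's processed signal relative to the 75th percentile of detected probes on the same array, so 0 is that percentile and -1 is 2-fold below it. Probes bind with different strength, so a level is compared between arrays for the same probe and not between genes. The share of spots well above background ran from 47.7% to 51.5% over the 4 arrays. Replicate spots of detected probes differed by a median SD of 0.0669 to 0.0791 log2 units, and by 0.132 to 0.180 for probes at levels between -6 and -4. The lowest detected level was -6.93, -6.59, -6.59 and -6.38 on the transplanted Sf3b1+/-, transplanted WT, native Sf3b1+/- and native WT arrays. Sf3b1 itself had 92.8% of the WT signal in transplanted and 75.4% in native Sf3b1+/- cells, from a probe whose place relative to the deleted part is not given. All 12 stem and progenitor markers on the list, among them Kit and Ly6a, which define the sort, were detected on all 4 arrays. Scaling on the spike-in transcripts instead moved the median difference of all genes to 0.63 between transplanted and 0.23 between native genotypes, and to 0.85 in Sf3b1+/- and 0.46 in WT cells between settings, so the differences below are relative to the other genes of the array.

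Of the 37 genes, 25 were well above background on all 4 arrays, which is 67.6% against 58.3% of all genes with a symbol. Another 3 were detected on some arrays: Il1rap on 3, Il2ra on 2 and Il9r on 1. The other 9 were well above background on no array. These were Il13ra1 and Il13ra2, which bind interleukin-13; Il1rl2, which binds interleukin-36; Il1rn, the secreted antagonist of the interleukin-1 receptor; Il1rapl1 and Il1rapl2, best known from neurons; Il17rd; Il22ra1; and Il23r. Their levels ran from -9.23 to -6.22, and no difference is read from them. Genes detected on at least 2 arrays were compared, 27 members among 13033 genes, of which 93.4% were detected on all 4 arrays against 25 of the 27. Il2ra and Il1rap passed that filter through the groups in which they were high.

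**Figure D1:**
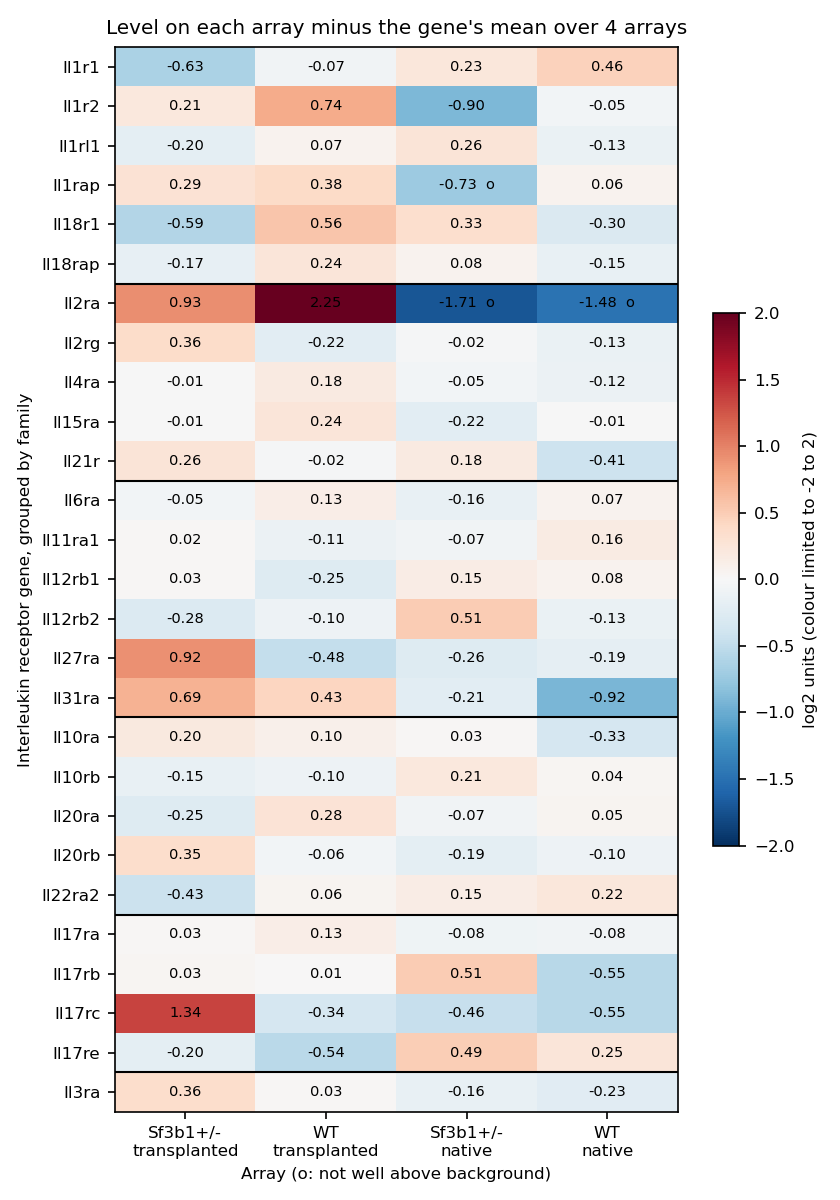
Heat map of the 27 compared interleukin receptor genes (rows, grouped by receptor family) on the 4 arrays (columns), each cell giving the log2 level minus the gene's mean over the 4 arrays. An o marks an array on which the probe was not well above background; Il17rc and Il27ra stand out on the transplanted Sf3b1+/- array and Il2ra on both transplanted arrays.

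The largest genotype differences were in transplanted cells, where the interleukin-17 receptor gene Il17rc and the interleukin-27 receptor gene Il27ra were higher in Sf3b1+/- and the interleukin-18 receptor gene Il18r1 and the interleukin-2 receptor gene Il2ra were lower. These 4 were the members at least 1.5-fold apart in that comparison. The 2 members at least 1.5-fold higher stand against 7.8% of all compared genes, and the 2 lower against 6.43%, and all 4 against 14.2%, close to the members' own shares. The median difference was -0.09 over the members and 0.0052 over all compared genes.

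Il17rc encodes a chain that pairs with the Il17ra chain to bind interleukin-17A and interleukin-17F. Its level was -1.16 in transplanted Sf3b1+/- cells, against -2.84 in transplanted WT cells, -2.96 in native Sf3b1+/- cells and -3.05 in native WT cells. A single array thus stood apart, 3.21-fold above transplanted WT, while the other 3 lay between -3.05 and -2.84. The difference of 1.68 was exceeded in size by 0.491% of all compared genes. The gene's other probe was well above background on the transplanted Sf3b1+/- array alone, at -4.50, which puts it at least 4.25-fold above transplanted WT and at least 4.24-fold above native Sf3b1+/-. The partner chain Il17ra did not go with it, at -1.44 and -1.34 in transplanted Sf3b1+/- and WT cells and -1.55 in both native groups.

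Il27ra encodes the private chain of the interleukin-27 receptor, which works with gp130. Its level was -2.25 in transplanted Sf3b1+/- cells, against -3.64 in transplanted WT, -3.42 in native Sf3b1+/- and -3.35 in native WT cells. The same array was again the high one, 2.63-fold above transplanted WT. The gp130 gene Il6st differed by 0.17 between the transplanted genotypes and by 0.0063 between the native ones. With transplantation Il6st was higher by 0.95 in Sf3b1+/- and 0.79 in WT cells, both past 1.5-fold.

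Il18r1 encodes the binding chain for interleukin-18 and Il18rap its signalling partner. Il18r1 was at -3.35 in transplanted Sf3b1+/- cells and -2.20 in transplanted WT cells, and at -2.42 in native Sf3b1+/- cells and -3.05 in native WT cells. Sf3b1+/- was the lower genotype after transplantation, by 2.22-fold, and the higher one in native cells, by 1.54-fold. The other Il18r1 probe differed by -0.77 in transplanted and by 0.07 in native cells. The other probe reads a different transcript. Il18rap differed by -0.41 and 0.22 in the same comparisons, under 1.5-fold in both.

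Il2ra encodes CD25, the chain that gives the interleukin-2 receptor its high affinity. It was at -5.78 in transplanted Sf3b1+/- cells and -4.45 in transplanted WT cells, and below background on both native arrays, with measured values of -8.42 in Sf3b1+/- and -8.18 in WT. Transplanted Sf3b1+/- cells had 2.51-fold less of it than transplanted WT cells. Among markers of T and NK cells, which also carry CD25, 4 of 11 were at least 1.5-fold lower and 1 was higher in transplanted Sf3b1+/- cells, and Cd8a was below background on every array. The summed level of that list was 11.7 in transplanted Sf3b1+/- and 12.6 in transplanted WT cells on the linear scale, in units of the array's 75th percentile. That sum mostly follows Nkg7, the brightest probe of the list, at 3.18 on both transplanted arrays. The list median between transplanted genotypes was -0.51. The part of that list in the Il2ra difference was not tested. On bulk RNA, fewer cells of a type and less RNA per cell cannot be told apart.

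**Figure D2:**
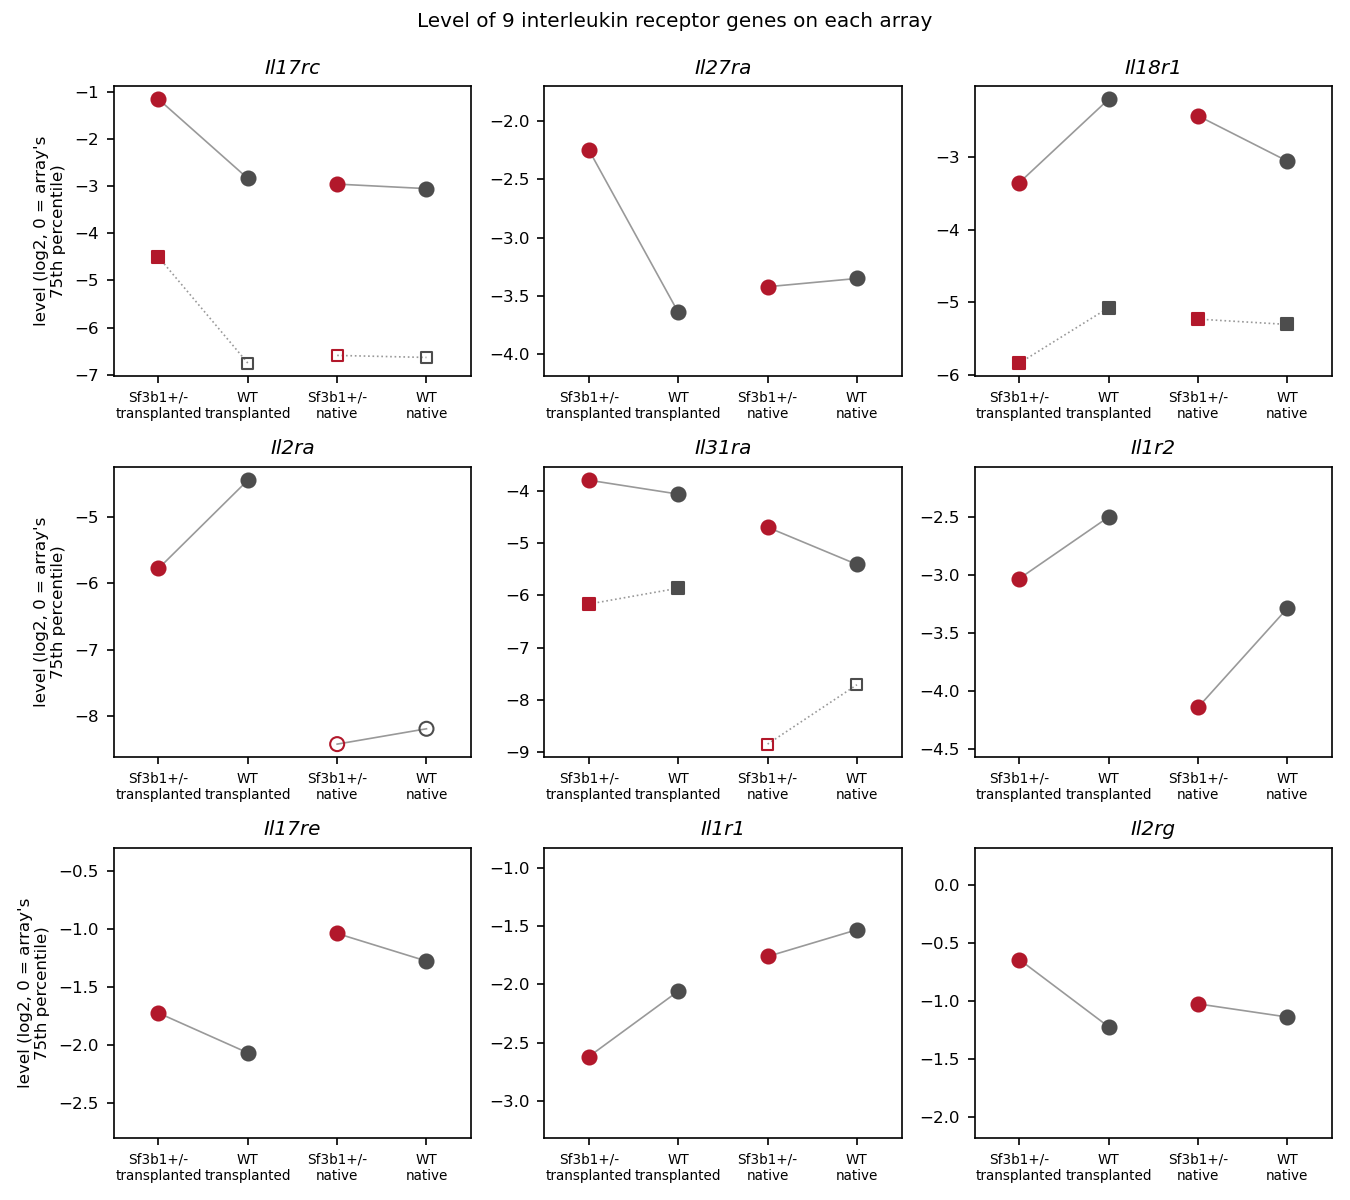
Log2 level of 9 interleukin receptor genes on each of the 4 arrays, 0 being the array's 75th percentile of detected probes; circles are the probe that stands for the gene, squares its other probe, red Sf3b1+/- and grey WT, open symbols not well above background. Il17rc and Il27ra are high on the transplanted Sf3b1+/- array, at -1.16 and -2.25, and Il2ra is below background on both native arrays.

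Other lists moved on the transplanted arrays too. In transplanted Sf3b1+/- cells 5 of 12 stem and progenitor markers were at least 1.5-fold higher and none lower, with a list median of 0.31. Of 8 megakaryocyte markers 7 were higher, and the summed level of that list was 30.2 in transplanted Sf3b1+/-, 15.8 in transplanted WT, 20.1 in native Sf3b1+/- and 12.9 in native WT cells. Pf4, the brightest probe of the list, makes up most of that sum, at 4.47, 3.69, 4.06 and 3.38 in the same order. Eosinophil markers summed to 1.93 in transplanted Sf3b1+/-, 1.15 in transplanted WT, 2.25 in native Sf3b1+/- and 1.61 in native WT cells. Neutrophil markers summed to 4.14 in transplanted Sf3b1+/-, 8.21 in transplanted WT, 4.04 in native Sf3b1+/- and 4.16 in native WT cells. Transplanted WT was the high array, and 4 of 8 neutrophil markers were at least 1.5-fold lower in transplanted Sf3b1+/- cells. Their part in the values of Il17rc, Il27ra and Il18r1 was not tested.

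In native cells 5 members were at least 1.5-fold higher in Sf3b1+/-, against a background of 3.25%, and 2 were lower, against 4.7%, so 7 were apart in all, against 7.95%. The higher ones were Il17rb, Il31ra, Il12rb2, Il18r1 and Il21r, and the lower ones Il1r2 and Il1rap. The median was 0.07 over the members and -0.0018 over all compared genes, and 20 of 27 members lay under 1.5-fold. In the same comparison 5 of 6 B lineage markers were at least 1.5-fold lower in native Sf3b1+/- cells and 4 of 8 megakaryocyte markers higher. Their part in the receptor values was not tested.

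Il17rb, the receptor chain for interleukin-25, was at -3.63 in native Sf3b1+/- and -4.69 in native WT cells, 2.09-fold apart, and at -4.10 and -4.12 in the transplanted Sf3b1+/- and WT groups, 1.02-fold apart. Its other probe was below background on every array. Il21r, the private chain for interleukin-21, was at -1.80 in native Sf3b1+/- and -2.39 in native WT cells, 1.51-fold apart. In transplanted cells it stood at -1.72 in Sf3b1+/- and -1.99 in WT, so native WT was the lowest array of the 4. For Il12rb2 the probes pointed apart. The Il12rb2 probe quoted here, for a chain of the interleukin-12 receptor, differed by 0.65 near the floor of detection, while the other probe was detected in native WT cells alone, which puts native Sf3b1+/- at least 2.26-fold lower. For Il31ra the quoted probe differed by 0.71 in native cells and the other probe was below background on both native arrays, so no native direction is read from it. In transplanted cells that other probe was detected on both arrays and differed by -0.30, where the quoted probe differed by 0.27.

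Il1r2 encodes the decoy receptor that binds interleukin-1 without signalling. It was lower in Sf3b1+/- in both settings, at -3.03 against -2.50 in transplanted WT cells and at -4.14 against -3.29 in native WT cells. The differences were 1.44-fold and 1.81-fold, and the fitted genotype difference over both settings was -0.69 ± 0.15 (SE; limma adjusted p = 0.313). Il1r1, the signalling receptor for interleukin-1, stood at -2.62 in transplanted Sf3b1+/- and -2.06 in transplanted WT cells, and at -1.76 in native Sf3b1+/- and -1.53 in native WT cells. Both of its differences were under 1.5-fold. Il1rap, the shared accessory chain of the family, was detected in native WT cells at -5.71 and not in native Sf3b1+/- cells, which is at least 1.73-fold lower. Its other probe, for a different transcript, was below background on every array.

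**Figure D3:**
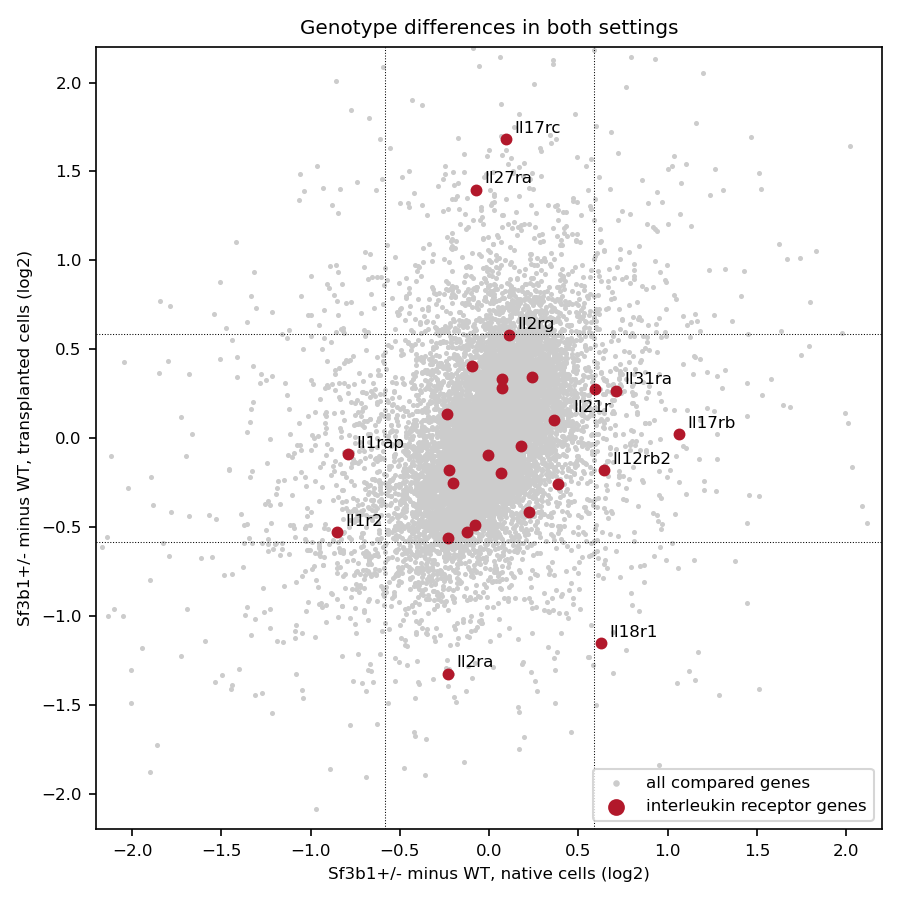
Log2 difference Sf3b1+/- minus WT in native cells (x axis) and in transplanted cells (y axis) for the 27 compared interleukin receptor genes (red) and all 13033 compared genes (grey); dotted lines mark 1.5-fold. Il17rc and Il27ra lie at the top near 0 on the x axis, Il18r1 at lower right, and no member passes 1.5-fold in the same direction on both axes; 34 genes lie outside the axes, none of them a member.

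No member was at least 1.5-fold higher, or lower, in Sf3b1+/- in both settings, where the background was 1.07% and 1.55%. In the limma fit of genotype with setting as a second term, 1 degree of freedom is left per gene. It holds the contrast between the settings' genotype differences, so a gene whose difference depends on setting gets a larger SE. The SE was 0.46 for Il18r1, 0.41 for Il17rc and 0.38 for Il27ra, so the fit cannot decide on differences of that kind. In this fit 0 of 27 members passed an adjusted p of 0.05. The background was 0% of all genes, or 0 of 13033. At an unadjusted p under 0.05 stood 3 members, Il1r2, Il21r (0.43 ± 0.15) and Il31ra (0.49 ± 0.16), against a background of 13.6%, and each ± is an SE from limma. Il31ra was fitted by its quoted probe, and its other probe pointed the other way between transplanted genotypes. The contrast between the settings' genotype differences has no replicate. It was at least 1 on the log2 scale, beside a background of 4.7% of genes, in 4 members detected on all arrays, Il18r1 (-1.78), Il17rc (1.58), Il27ra (1.47) and Il17rb (-1.04). Il2ra also passed as measured, from native levels below background, and no contrast is read from it.

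Transplantation was set against native cells within each genotype, and these comparisons use the same arrays as those above. In Sf3b1+/- cells 6 members were at least 1.5-fold higher after transplantation (background 11.4%) and 4 lower (background 7.01%), or 10 in all (background 18.4%). In WT cells 4 were higher (background 7.95%) and 1 lower (background 5.74%), or 5 in all (background 13.7%). The other calls in Sf3b1+/- cells were Il17rc, Il27ra and Il1rap on the higher side and Il12rb2, Il1r1 and Il18r1 on the lower side. Il1rap was not well above background in native Sf3b1+/- cells, which puts transplanted ones at least 2.02-fold higher by that probe. Its difference turned to -0.30 with the mean of its probes and to -0.11 with a normexp correction. Il18r1 was the other call in WT cells, on the higher side. The other Il12rb2 probe was detected in native WT cells alone, which puts transplanted WT at least 2.26-fold lower by that probe. Whether the change with transplantation differs between the genotypes was not tested. Il2ra, Il31ra and Il1r2 were higher in both genotypes, against a background of 4.55%, and Il17re was lower in both, against 2.45%. Il2ra was compared only because both transplanted arrays detected it, so its place in these higher counts follows from the detection filter.

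Il2ra was at least 1.76-fold higher in transplanted than in native Sf3b1+/- cells and at least 3.8-fold higher in transplanted than in native WT cells. Both native values were below background, so its fitted difference is not given. Il31ra, the private chain of the interleukin-31 receptor, was at -3.79 in transplanted and -4.69 in native Sf3b1+/- cells, and at -4.06 in transplanted and -5.41 in native WT cells. The fitted difference was 1.12 ± 0.16 (SE; limma adjusted p = 0.0874), and the other probe was detected on both transplanted arrays and on neither native one, at least 1.35-fold and 1.43-fold higher in Sf3b1+/- and WT. Il1r2 was 2.16-fold higher in Sf3b1+/- and 1.73-fold higher in WT cells after transplantation, with a fitted difference of 0.95 ± 0.15 (SE; limma adjusted p = 0.0921).

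Il17re, which binds interleukin-17C, was at -1.72 in transplanted and -1.04 in native Sf3b1+/- cells, and at -2.06 in transplanted and -1.27 in native WT cells. Its fitted difference was -0.74 ± 0.12 (SE; limma adjusted p = 0.101), and with spike-in scaling the Sf3b1+/- difference turned to 0.16. Il1r1 was lower after transplantation, by 1.82-fold in Sf3b1+/- and 1.44-fold in WT cells (limma adjusted p = 0.124). None of the 27 members passed an adjusted p of 0.05 for setting, against a background of 0.583% of all genes, while 6 had an unadjusted p under 0.05, against 25.8%. Those 6 were Il31ra, Il1r2, Il17re and Il1r1, and Il2ra and Il1rap, whose fits use values below background.

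The 250 bases before the annotated start are shown for Il31ra, Il1r2, Il2ra and Il17re, the members past 1.5-fold on transplantation in Sf3b1+/- and WT alike, 5′ to 3′ on the gene's strand, from RefSeq on build GRCm38.p6. Capitals mark the STAT site searched for, TTCNNNGAA, which reads the same on both strands.
Il31ra (chr13:112580663-112580912, minus strand): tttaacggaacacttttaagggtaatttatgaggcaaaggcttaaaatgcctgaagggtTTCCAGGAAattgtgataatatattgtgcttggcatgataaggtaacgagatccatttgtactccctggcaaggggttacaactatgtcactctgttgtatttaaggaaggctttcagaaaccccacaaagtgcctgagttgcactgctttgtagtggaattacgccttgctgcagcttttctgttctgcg
Il1r2 (chr1:40085843-40086092, plus strand): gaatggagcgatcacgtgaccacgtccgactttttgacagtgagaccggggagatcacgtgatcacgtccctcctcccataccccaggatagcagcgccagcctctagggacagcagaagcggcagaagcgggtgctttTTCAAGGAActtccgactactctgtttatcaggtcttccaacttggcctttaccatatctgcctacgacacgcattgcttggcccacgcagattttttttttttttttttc
Il2ra (chr2:11642542-11642791, plus strand): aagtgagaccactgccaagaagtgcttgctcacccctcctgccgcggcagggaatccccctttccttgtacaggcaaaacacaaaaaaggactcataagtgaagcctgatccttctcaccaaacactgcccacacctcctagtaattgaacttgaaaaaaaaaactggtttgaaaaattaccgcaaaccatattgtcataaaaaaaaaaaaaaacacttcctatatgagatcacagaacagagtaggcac
Il17re (chr6:113458521-113458770, plus strand): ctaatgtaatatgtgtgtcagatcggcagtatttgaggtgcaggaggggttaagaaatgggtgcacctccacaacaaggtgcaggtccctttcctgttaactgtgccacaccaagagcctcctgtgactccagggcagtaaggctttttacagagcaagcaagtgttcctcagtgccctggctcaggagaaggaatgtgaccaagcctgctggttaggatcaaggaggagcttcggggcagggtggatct
Il31ra and Il1r2 held 1 match each, TTCCAGGAA and TTCAAGGAA, beginning 191 and 111 bases before the start, while Il2ra and Il17re held none. Such a match was present in 7.02% of 32851 promoters of that length, and in 4 of the 39 promoters that the table gives for 31 members, the others being those of Il12rb2 and 1 of the Il18r1 promoters. The 4 sequences held no GATA site (AGATAA), Runx site (TGTGGT) or GC box (GGGCGG) on either strand, which 9.99%, 14.1% and 32.7% of all promoters held, and no motifs overlapped. A match is a description of the letters and not of binding.

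Some markers of mast cells and basophils went with the setting. The summed level of the list was 3.81 in transplanted Sf3b1+/- and 3.82 in transplanted WT cells, against 2.34 in native Sf3b1+/- and 1.95 in native WT cells, and 3 of its 6 detected genes passed 1.5-fold upward in each genotype. Those 3 were Fcer1a, Mcpt8 and Prss34, while Cpa3, Tpsb2 and Hdc stayed under 1.5-fold in both. Ms4a2 and Cma1 of that list were below background on all 4 arrays. Il1rl1, the interleukin-33 receptor gene that mast cells and type 2 innate lymphoid cells carry, was at -3.71 and -3.44 in transplanted Sf3b1+/- and WT cells and at -3.25 and -3.64 in native ones, under 1.5-fold apart in every comparison. Markers of those lymphoid cells summed to 0.714 in transplanted Sf3b1+/-, 0.486 in transplanted WT, 0.401 in native Sf3b1+/- and 0.425 in native WT cells, with Klrg1, Arg1 and Bcl11b below background on all 4 arrays. That sum mostly follows Gata3, which differed by 1.12 between transplanted genotypes, while Rora differed by -0.46 and Icos by -1.26. B lineage markers went the other way, with sums of 2.24 and 2.52 in transplanted Sf3b1+/- and WT cells and 3.31 and 8.58 in native ones. Cd79b, at 0.93 and 1.00, makes up most of the transplanted sums, and Pax5 was below background on all 4 arrays. Macrophage and dendritic cell markers summed to 53.5 in transplanted Sf3b1+/-, 75.3 in transplanted WT, 56.2 in native Sf3b1+/- and 64.8 in native WT cells. That sum mostly follows Siglech, the brightest probe of the list, at 5.48, 6.05, 5.70 and 5.89 in the same order. Of the list's 6 compared genes, 5 were at least 1.5-fold higher after transplantation in Sf3b1+/- and 2 in WT cells, with none lower. The part of these lists in the receptor values was not tested.

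Some of the genes are neighbours on a chromosome. Of the members, 6 lie side by side on chromosome 1 with no other coding gene between them in RefSeq, in the order Il1r2, Il1r1, Il1rl2, Il1rl1, Il18r1 and Il18rap. After transplantation Il1r2 was higher by 1.11 in Sf3b1+/- and 0.79 in WT cells, while its neighbour Il1r1 stood at -0.86 and -0.53. At the other end Il1rl1, Il18r1 and Il18rap were each lower in Sf3b1+/- than in WT after transplantation, at -0.26, -1.15 and -0.41. In native cells these genes were higher in Sf3b1+/-, at 0.39, 0.63 and 0.22, and only Il18r1 passed 1.5-fold in either setting. Il1r2 and Il1r1 were also lower in transplanted Sf3b1+/- cells, at -0.53 and -0.56, and lower in native ones, at -0.85 and -0.23. Il17re and Il17rc are neighbours on chromosome 6, and after transplantation of Sf3b1+/- cells Il17re stood at -0.68 and Il17rc at 1.80.

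**Figure D4:**
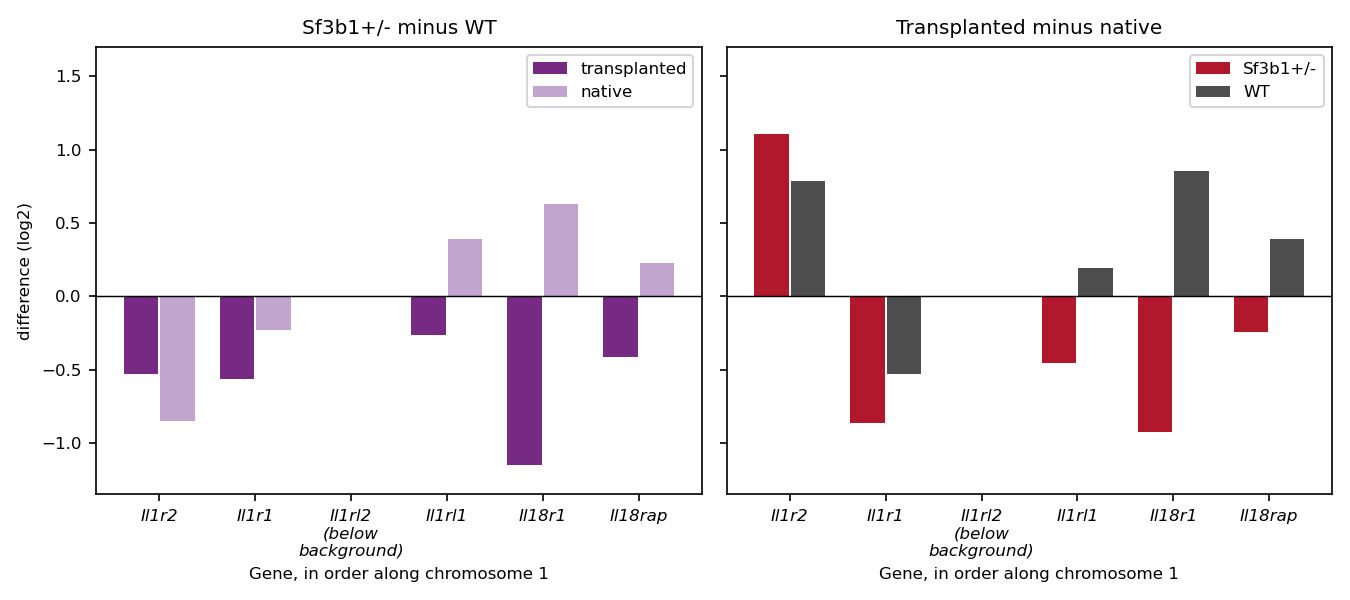
Log2 differences of the 6 interleukin receptor genes that lie side by side on chromosome 1, in gene order: Sf3b1+/- minus WT (left) in transplanted and native cells, and transplanted minus native (right) in Sf3b1+/- and WT cells. Il1r2 and its neighbour Il1r1 point apart after transplantation. By the probe that stands for it, Il18r1 changes direction between the settings, while its other probe differed by 0.07 in native cells. No bar is drawn for Il1rl2, which was below background.

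The probes that stand for Il3ra, Il6ra, Il2rg and Il11ra1 were under 1.5-fold in all 4 comparisons. Il3ra, the private chain for interleukin-3, was at 1.03 and 0.70 in transplanted Sf3b1+/- and WT cells and at 0.52 and 0.45 in native ones. Il6ra, the private chain for interleukin-6, was at 1.28 and 1.46 in transplanted and at 1.17 and 1.40 in native Sf3b1+/- and WT cells. Il2rg, the common gamma chain, was at -0.65 in transplanted Sf3b1+/- and -1.22 in transplanted WT cells, 1.49-fold apart and just inside the threshold, and at -1.03 and -1.14 in native ones. Il11ra1, the chain for interleukin-11, was at 2.04 and 1.90 in transplanted and at 1.94 and 2.18 in native Sf3b1+/- and WT cells, and its probe may also read the near-identical copy Il11ra2. By the probe that stands for the gene, 15 of the 27 members were under 1.5-fold in each of the 4 comparisons, with a largest difference of 0.58 in size.

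Il4ra, Il15ra and Il12rb1 were also under 1.5-fold by the quoted probe, and further probes of Il15ra and Il12rb1 were not. Il4ra, which serves interleukin-4 and interleukin-13, was at -3.13 and -2.94 in transplanted and at -3.17 and -3.24 in native Sf3b1+/- and WT cells. Il15ra, which presents interleukin-15, was at 1.34 and 1.6 in transplanted and at 1.14 and 1.34 in native cells, and Il12rb1 at -0.71 and -0.99 and at -0.59 and -0.66. Both further probes were detected on all 4 arrays. That of Il15ra was higher after transplantation by 1.41 in Sf3b1+/- cells, or 2.66-fold, and by 0.28 in WT cells, where the quoted probe stood at 0.21 and 0.26. Between the transplanted genotypes it differed by 0.63 where the quoted probe differed by -0.25. The further probe of Il12rb1 was higher after transplantation by 0.76 in Sf3b1+/- and 0.78 in WT cells where the quoted probe stood at -0.12 and -0.33. Il9r was detected in native Sf3b1+/- cells alone, at -5.98, at least 1.32-fold above native WT and at least 1.93-fold above transplanted Sf3b1+/- cells.

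In the interleukin-10 receptor family no difference was called. None of the 5 compared genes was 1.5-fold apart in any comparison. Il10ra, the binding chain for interleukin-10, was at -1.49 and -1.59 in transplanted and at -1.67 and -2.03 in native Sf3b1+/- and WT cells. Il10rb, its partner, was at -2.04 and -1.99 and at -1.68 and -1.85. Il22ra2, a secreted binding protein for interleukin-22, was at -3.96 and -3.48 and at -3.39 and -3.31. Il20ra and Il20rb, the chains for interleukin-20, lay close to the floor of detection, between -6.29 and -5.36.

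The rest of the pathway was read from lists of shared chains, kinases, adaptors, inhibitors and ligands. No gene of these 5 lists passed 1.5-fold in the same direction in both settings, and none passed an adjusted p of 0.05 for genotype in limma. Of 17 compared receptor chains without an Il symbol, a list that also holds the kinase Tyk2, 3 were at least 1.5-fold higher and 1 lower in transplanted Sf3b1+/- cells and none in native ones. The background over all compared genes was 7.8% higher and 6.43% lower in transplanted cells, and 3.25% and 4.7% in native ones. Lifr was the lowest in transplanted cells at -0.63, while in native cells Epor was the highest at 0.50 and Csf1r the lowest at -0.50. Of 11 Janus kinases and STAT factors Tyk2 was the highest in both settings, at 0.77 in transplanted and 0.45 in native cells. The lowest were Stat3 at -0.12 in transplanted and Stat5b at -0.013 in native cells.

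Among 20 compared inhibitors and STAT targets, Bcl2l1 was the highest at 0.45 and Bcl6 the lowest at -0.61 in transplanted cells, and Socs5 the highest at 0.60 and Cish, an inhibitor induced by STAT5, the lowest at -0.86 in native cells. Of 19 adaptors of the interleukin-1 branch Irak3, which restrains that branch, was at 0.94 and Peli1 at -0.57 in transplanted cells, and Tab1 was at 0.30 and Rela at -0.37 in native ones. Of 36 interleukins and decoys with a probe, 19 were below background on all 4 arrays and 14 were compared. Il18bp, the secreted decoy of interleukin-18, was the highest in transplanted cells at 1.5 and Il10 the lowest at -0.74, while in native cells Il7 and Il24 were the extremes as measured. Il7 was not well above background in native WT cells, which puts native Sf3b1+/- at least 1.43-fold higher. Il24 was not well above background in native Sf3b1+/- cells, which puts them at least 1.53-fold lower. Among interleukins detected on all 4 arrays, Il12a stood at 0.61 and Il4 at -0.62. Chosen after its values were seen, Il18bp had a level of -2.35 in transplanted Sf3b1+/- cells, against -3.85 in transplanted WT, -4.24 in native Sf3b1+/- and -4.10 in native WT cells, with the same high array as Il17rc and Il27ra.

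With transplantation, 6 of the 17 receptor chains were at least 1.5-fold higher in Sf3b1+/- and 3 in WT cells, with none lower. For this and the counts below, the background over all compared genes was 11.4% higher and 7.01% lower in Sf3b1+/- cells. In WT cells it was 7.95% higher and 5.74% lower. Chosen after their values were seen, Csf2rb2, a mouse form of the common beta chain that serves interleukin-3, was higher by 1.08 in Sf3b1+/- and 0.74 in WT cells, as Il6st was. Lifr counts in both as measured, and its native levels were below background. Of the inhibitors and STAT targets 4 were higher in Sf3b1+/- and 2 in WT cells, with none lower. Of the kinases and STAT factors 1 was higher in Sf3b1+/- and none in WT cells. That 1 was Tyk2, which the receptor chain count also holds. Of the adaptors 1 was higher and 2 lower in Sf3b1+/-, and 2 were lower in WT cells. Of the interleukins 4 were higher and 2 lower in Sf3b1+/-, and 3 higher and 2 lower in WT cells. In WT cells Il6 and Il7 count as higher, and Il24 as lower, as measured, with 1 array of the pair below background. The bounds were at least 3.48-fold higher for Il6, at least 1.30-fold higher for Il7 and at least 1.53-fold lower for Il24.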

How the data were processed

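RNA of sorted LSK cells was measured on 4 Agilent arrays, 1 per group. All shared 1 slide, and array position and group cannot be told apart. Per the labels, a low-input kit amplified RNA with added spike-in transcripts and labelled it with Cy3. The deposited intensity values were made with Feature Extraction 10.7.1.1, with background subtraction and detrending within the array, per the file headers. The authors' deposited value table holds ratio values, each array's processed signal over a constant, as found by comparison with the scanner values, and served as an alternative.

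Outlier spots were left out, replicate spots averaged on the log2 scale, and each array's deposited intensity shifted by its 75th percentile over the 24731 probes detected on all 4 arrays, since 49.5% of spots were detected, under the limit of 50%. Probes took gene symbols from RefSeq transcripts of GRCm38.p6 (27509 matched), and the probe with the highest mean stood for its gene. Genes detected on at least 2 arrays were compared. A difference was called at 1.5-fold, with no test. The additive model was fitted to all compared genes with limma 3.58.1 in R 4.3.3 (two-sided, Benjamini-Hochberg), with a prior of 3.05 degrees of freedom. With no label of separate animals per array, its p-values reflect the scatter among these 4 arrays only, technical or not. That scatter includes any dependence of the genotype difference on setting. Data were simulated for 13033 genes, with changed genes given the same difference in both settings. There adjusted p-values of the genotype fit found 2% of the 2-fold and 94% of the 4-fold differences. Differences in 1 setting alone were not simulated. A bound sets the bright array against the higher of the dim array's lowest detected level and the dim value. The members and lists were chosen with earlier results of these data known. Members were named by detection class, and list genes by the highest and lowest in each genotype comparison, of which 1 is not reported here. A normexp correction was planned on the mean spot signal. It was run on the median spot signal instead, a choice made after seeing the data. Other alternatives were quantile and spike-in scaling, the percentile over all probes, the mean of a gene's probes, 2 other detection filters and a 2-fold threshold.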

Additional observations from a re-analysis of the deposited data

Results flagged for a closer look

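Il18r1 is set apart because its genotype difference took opposite directions, each past 1.5-fold, in transplanted cells (-1.15) and native cells (0.63). The difference between these was -1.78 on the log2 scale, which 0.829% of all compared genes exceeded in size. The same 4 arrays read the other way give the change with transplantation, -0.92 in Sf3b1+/- and 0.86 in WT cells. Neither contrast between groups was tested, since each group has 1 array. The gene's other probe gave -0.77 in transplanted and 0.07 in native cells, so its native value does not show the opposite direction at that size. The native difference was 0.35 with the mean of probes and 0.41 with normexp, both under 1.5-fold. With spike-in scaling the transplanted difference was -0.53 and the change in Sf3b1+/- cells -0.08. The change in WT cells was 0.54 with the mean of probes and 0.58 with normexp, both under 1.5-fold.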

How the results depend on the processing

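No paired analysis was possible because each group has 1 array and the only replicate number is 1. Counts of members past 1.5-fold were 2 higher and 2 lower between transplanted genotypes, 5 and 2 between native genotypes, 6 and 4 with transplantation in Sf3b1+/- and 4 and 1 in WT cells. Spike-in scaling gave 12 and 1, 7 and 1, 19 and 0, and 16 and 0 in that order. A 2-fold threshold gave 2 and 2, 1 and 0, 5 and 0, and 2 and 0. Normexp on median signals, chosen after seeing the data, gave 2 and 2, 0 and 1, 3 and 3, and 3 and 1. With the filter on detection left out, the lower counts were 5 between transplanted genotypes, 4 between native genotypes and 2 with transplantation in WT cells. Detection on all 4 arrays gave 1 lower in each genotype comparison. The mean of a gene's probes gave 1 higher between native genotypes. The mean of probes, the percentile over all probes and the deposited table each gave 2 lower with transplantation in WT cells.

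Adjusted limma p-values under 0.05 for genotype, 0 of all genes, became 543 with spike-in scaling, 3 of them members (Il17rb, Il17rc and Il27ra), and 20 with normexp, none a member. For setting the count of 76 became 5789 with spike-in scaling (16 members), 1404 with normexp (5 members), 264 with detection on all 4 arrays (2 members, Il1r2 and Il31ra), 7 with the deposited table, and 0 with quantile normalization, the mean of probes or no filter.

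Directions turned for Il12rb2 (-0.70 native genotype, mean of probes; 0.052 setting in Sf3b1+/-, spike-in), Il17re (0.16 setting in Sf3b1+/-, spike-in), Il31ra (-0.21 native genotype, mean of probes) and Il1rap (0.12 native genotype and -0.30 setting in Sf3b1+/-, mean of probes; -0.11 setting in Sf3b1+/-, normexp). The cause was not tested, except that the mean of probes includes probes below background. Il17rc and Il27ra kept their direction between transplanted genotypes, at 1.53 to 2.30 and 0.95 to 2.02. Il18r1 fell short of 1.5-fold there with spike-in scaling, at -0.53, and between native genotypes with the mean of probes, at 0.35, and normexp, at 0.41. Its change in Sf3b1+/- cells was -0.08 with spike-in scaling. Signals near background limit Il12rb2, Il1rap, Il20ra, Il20rb, Il2ra and Il9r.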
